A study of Homo sapiens with 12 samples.

Results

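The early growth response (EGR) transcription factor genes EGR1, EGR2 and EGR3 and the corepressor genes NAB1 and NAB2 were followed through the Kit response of HUDEP-2 cells. These 5 genes were taken by symbol from a table of 54628 gene rows, and all 5 were among the 15492 genes with enough counts to be tested. The rule that names them is a list of symbols and holds no expression value, though earlier results of these data were known when it was written. HUDEP-2 is an immortalised human erythroid precursor line derived from cord blood. The cells had received a lentivirus carrying dCas9 fused to the KRAB repressor with a guide RNA, and were sorted for GFP. The guide was either a scrambled control (sgControl) or one aimed at an element upstream of EGR1 (sgEGR1). All groups were starved for 5 h and then given PBS or 50 ng/mL stem cell factor (SCF), the Kit ligand, for 1 h. The 4 groups were thus sgControl PBS, sgControl SCF, sgEGR1 PBS and sgEGR1 SCF, with 3 libraries each. A single guide per target was used, so a guide and its target cannot be told apart. The methods call the replicates biological, whereas the labels do not say that they came from separate cultures. If they did not, p-values measure only the spread between libraries.

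EGR1, EGR2 and EGR3 encode zinc-finger activators that bind the same GC-rich site and are induced within minutes to hours by growth factors through ERK. Serum response factor and its ETS-family partners carry the ERK signal to CArG boxes in EGR promoters. NAB1 and NAB2 have no DNA-binding domain of their own. They bind a repression domain shared by EGR1, EGR2 and EGR3, turn these activators down, and NAB2 recruits the NuRD chromatin remodelling complex. NAB2 is also known as a target of EGR1, which makes a feedback loop. The questions were whether EGR2 or EGR3 made up for less EGR1, and whether NAB mRNA followed EGR1 library by library.

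The sgEGR1 guide was aimed at an element upstream of EGR1, so its target site is shown with the adjacent PAM in capitals. The sgEGR1 guide matched 1 site in the GRCh38 primary chromosomes, at chr5:138464830-138464849 on the plus strand, and the middle of this site lay 640 bp before the annotated start of EGR1.
sgEGR1 site and PAM: ggatgacagcgatagaacccCGG

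Promoters of EGR1, EGR2, NAB1 and NAB2 are shown because the levels of these mRNAs are compared across the same libraries. Each window runs from 250 bases before to 50 bases after a start annotated by RefSeq in GRCh38.p14, read on the gene's own strand. Both strands were searched for the EGR site GCGTGGGCG, for its core GCGTGGG, which the longer site contains, and for the CArG box. Of 35116 such windows over all genes, 0.795% held the EGR site, 6.98% the core and 1.29% a CArG box. Capitals mark CArG boxes in EGR1 and EGR2 and EGR cores or sites in NAB1 and NAB2. Matches describe letters and are not evidence of binding.
EGR1 chr5:138465229-138465528 (+): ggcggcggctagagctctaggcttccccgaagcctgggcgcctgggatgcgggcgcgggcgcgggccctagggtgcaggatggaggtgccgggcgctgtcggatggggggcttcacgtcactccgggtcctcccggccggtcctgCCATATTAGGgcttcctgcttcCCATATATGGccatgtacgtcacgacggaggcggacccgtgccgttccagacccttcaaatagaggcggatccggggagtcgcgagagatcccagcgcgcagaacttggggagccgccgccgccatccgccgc
EGR2 chr10:62816317-62816616 (-): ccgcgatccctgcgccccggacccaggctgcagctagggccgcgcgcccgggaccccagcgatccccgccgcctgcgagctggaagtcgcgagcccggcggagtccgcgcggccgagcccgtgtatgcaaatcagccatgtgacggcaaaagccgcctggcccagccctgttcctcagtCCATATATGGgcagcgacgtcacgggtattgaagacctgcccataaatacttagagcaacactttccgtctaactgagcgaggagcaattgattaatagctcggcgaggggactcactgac
NAB1 chr2:190648645-190648944 (+): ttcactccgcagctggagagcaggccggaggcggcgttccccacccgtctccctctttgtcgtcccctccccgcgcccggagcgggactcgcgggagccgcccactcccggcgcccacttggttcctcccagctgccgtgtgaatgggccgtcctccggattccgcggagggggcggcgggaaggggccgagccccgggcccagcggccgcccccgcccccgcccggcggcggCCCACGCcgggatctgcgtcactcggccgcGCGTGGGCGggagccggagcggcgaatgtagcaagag
NAB2 chr12:57088864-57089163 (+): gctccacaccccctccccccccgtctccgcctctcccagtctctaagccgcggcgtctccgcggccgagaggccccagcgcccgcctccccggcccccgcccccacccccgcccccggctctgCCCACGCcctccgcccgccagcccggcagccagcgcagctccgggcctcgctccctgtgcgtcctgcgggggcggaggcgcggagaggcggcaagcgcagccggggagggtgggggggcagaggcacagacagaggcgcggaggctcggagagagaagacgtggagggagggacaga
For EGR2 and NAB1 the first of 3 windows is shown, and the others of EGR2 held none of these motifs. The second NAB1 window overlaps the first and holds the same EGR site, and the third held none. The EGR1 window held 2 CArG boxes and no EGR core, and the EGR2 window held 1 CArG box and no EGR core. The NAB1 window held 2 cores, of which 1 lay within a full EGR site at positions 13 to 21 from the start. The NAB2 window held 1 core, at positions -127 to -121 from the start.

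Library totals ranged from 23498065 to 32039680 counts. Levels are given as CPM, that is counts scaled to a common library size with TMM factors. Levels of different genes are compared as CPM per kb of exon. Calls rest on edgeR with p adjusted by Benjamini-Hochberg over all tested genes, at a threshold of 0.05. Erythroid markers were present in every group, with GATA1 between 271 and 327 CPM and KIT between 462 and 555 CPM, and the summed CPM of the 11 erythroid markers, most of it HBB, overlapped among the 4 groups. Single erythroid markers differed with the guide. Mean HBG1 was 36.5 CPM in sgControl and 130.5 CPM in sgEGR1 after PBS and 49.8 and 101.7 CPM after SCF, and KIT was 497 and 542 CPM after PBS and 493 and 518 CPM after SCF, without overlap of the guides. HBG2 was 31.4 and 77.3 CPM after PBS, without overlap, and 34.9 and 57.6 CPM after SCF, with overlap. In edgeR none of these 3 was called (adjusted p 0.879 to 1), HBG1 and HBG2 are near-identical copies whose reads can be split wrongly, and their part in the guide differences was not tested. Markers that define other lineages (PF4, GP9 and PPBP for megakaryocytes, MPO and ELANE for myeloid cells, CD3E and MS4A1 for lymphoid cells) were at 0 in all 12 libraries. ITGA2B, SPI1 and PTPRC, the remaining markers above 1 CPM in those lists, overlapped among groups. FOS was highest in replicate 1 of every group, at 16.7 to 146 CPM against 2.53 to 15.5 CPM in replicates 2 and 3. In these bulk libraries a change in RNA per cell and a change in the share of cells with the RNA cannot be told apart.

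EGR1 (chr5:138465479-138469303, plus strand) is the gene the guide was aimed at, and it checks the labels. The sgControl PBS libraries held 10.9, 5.99 and 7.45 CPM in replicates 1, 2 and 3, and the sgEGR1 PBS libraries held 2.04, 1.12 and 0.977 CPM. After SCF the sgControl libraries held 207.5, 239.5 and 171 CPM. Under the sgEGR1 label the levels with SCF were 40.4, 57.4 and 203.6 CPM. The guide groups did not overlap after PBS, whereas after SCF the library labelled sgEGR1 SCF replicate 3 lay inside the sgControl range. Its EGR1 level goes against its label, and its NAB2 level also lay inside the sgControl range. HBG1, KIT and the AP-1 gene FOSL1 were named because the guides did not overlap in them after SCF, whereas in HBG2 they overlapped. That choice puts this library with the sgEGR1 libraries in these genes, so it is no evidence on the label. FOSL1 was at 18.735 CPM in this library and at 16.012 CPM in the highest sgControl SCF library. Such non-overlap held for 7.14% of tested genes, and whether this library is rightly labelled was not tested. The main results that rest on this library are given with and without it. Between guides the log2 fold change of EGR1 was -2.59 after PBS (95% interval -4.34 to -0.84, adjusted p 0.999) and -1.03 after SCF (-2.02 to -0.05, adjusted p 1). Neither was called. By exact permutation, two-sided, p was 0.1 after PBS and 0.2 after SCF, where 0.1 is the lowest attainable with 3 libraries a group. When that library was left out, the SCF difference was -2.08 (adjusted p 0.0189) and was called. The library had been singled out by its EGR1 level, so this call is not an independent test of EGR1. The remaining sgEGR1 SCF libraries were still 19.8- and 51.3-fold above the PBS library of the same number, against 19.1-, 40.0- and 23.02-fold in sgControl, so EGR1 was induced under both guides. The fitted SCF response of EGR1 was called in both guides, at a log2 fold change of 4.66 (SE 0.55, adjusted p 0.000834) in sgControl and of 6.22 (SE 0.69, adjusted p 0.000522) in sgEGR1. Without the doubted library the latter was 5.18 (SE 0.30). The response difference between guides was 1.56 (95% interval -0.51 to 3.62, p 0.127), and 0.51 (SE 0.42, p 0.242) without that library.

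**Figure D1:**
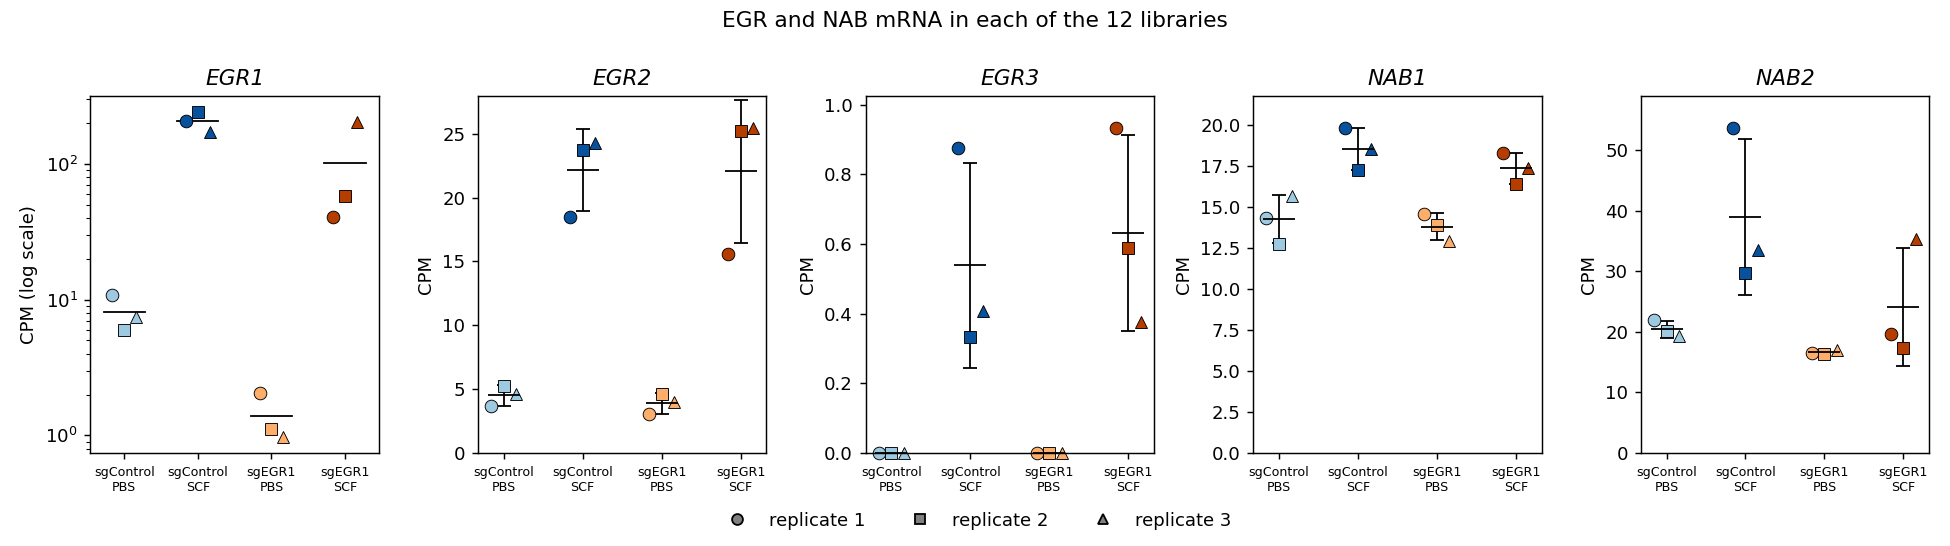
CPM of each gene in the 12 libraries, 1 panel per gene, with a log axis for EGR1 and axes from 0 for the others. Symbols give the replicate, horizontal lines the group mean and, outside the EGR1 panel, error bars the SD (n = 3). EGR1 in sgEGR1 SCF replicate 3, at 203.6 CPM, sits among the sgControl SCF libraries at 171 to 239.5 CPM, and EGR2 looks alike in both guides.

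EGR3, with 0 counts in every PBS library, passed the filter on low counts through its SCF libraries alone, had to be higher there and is left out of the SCF counts here. Among the other 4 genes, 3 were called higher after SCF in sgControl (EGR1, EGR2 and NAB1) and 2 in sgEGR1 (EGR1 and EGR2). Over all tested genes 2.12% were called higher in sgControl and 1.81% in sgEGR1. All 4 genes had SCF libraries above every PBS library in both guides, which held in either direction for 19.6% of tested genes in sgControl and 21.2% in sgEGR1. The median log2 fold change of the 4 genes was 1.61 in sgControl and 1.52 in sgEGR1, against -0.0060 and -0.00048 over all tested genes. With the doubted library left out, those called were EGR1, EGR2 and NAB2 in sgControl (1.65% of all tested genes called higher) and EGR1 and EGR2 in sgEGR1 (1%). Between guides and for the response difference, 0 of the 5 genes and 0% of tested genes were called in edgeR. At an unadjusted p under 0.05 there were 1 of 5 genes after PBS (EGR1), 2 of 5 after SCF (EGR1 and NAB2) and 0 of 5 for the response difference, against 715, 361 and 306 of all tested genes. With DESeq2 in place of edgeR, 1, 0 and 0 of the 5 genes were called, against 0.129%, 0.0323% and 0.0258% of genes given an adjusted p. The groups of the 2 guides did not overlap for EGR1 and NAB2 after PBS and for no member after SCF, against 9.31% and 7.14% of tested genes.

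EGR2 (chr10:62811996-62819167, minus strand), known for its role in myelination and in lymphocyte and myeloid differentiation, rose with SCF under both guides, to levels that overlapped. The sgControl libraries held 3.65, 5.28 and 4.65 CPM after PBS and 18.5, 23.7 and 24.3 CPM after SCF. The sgEGR1 libraries held 3.02, 4.66 and 3.98 CPM after PBS and 15.6, 25.2 and 25.4 CPM after SCF. SCF libraries lay far above PBS libraries, replicate 1 was the lowest of its group in all 4 groups, and the guide groups overlapped in each treatment. The SCF response was 4.90-fold in sgControl (log2 2.29, SE 0.22, adjusted p 0.000196) and 5.65-fold in sgEGR1 (log2 2.50, SE 0.22, adjusted p 0.000117). Between guides the log2 fold change was -0.21 after PBS (95% interval -0.72 to 0.29) and -0.0062 after SCF (-0.44 to 0.42). The interval after SCF leaves room for a level in sgEGR1 of 0.74 to 1.34 times that in sgControl. The response difference was 0.21 (-0.46 to 0.87). Without the doubted library the difference after SCF was -0.12 (-0.62 to 0.37). EGR2 shares 145 bp of exon with the lncRNA ENSG00000289487 on the same strand, so reads there cannot be assigned to one of them with certainty.

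EGR3, on chromosome 8, a relative that is itself induced by growth factors and antigen receptors, was detected after SCF only, at low counts. All 6 PBS libraries held 0 counts, which allows up to 0.105 to 0.128 CPM per library at a floor of 3 counts. The sgControl SCF libraries held 28, 10 and 13 counts, or 0.876, 0.333 and 0.409 CPM. The sgEGR1 SCF libraries held 27, 17 and 12 counts, or 0.932, 0.590 and 0.375 CPM. Replicate 1 was the highest in both, and the guides overlapped. Against the floor of 3 counts per PBS library, EGR3 was at least 4.72-fold higher after SCF in sgControl and at least 5.51-fold higher in sgEGR1. No test is given for this direction, which the filter fixed. Between guides after SCF the log2 fold change was 0.22 (95% interval -1.06 to 1.496), and 0.49 without the doubted library. EGR3 shares 164 bp of exon with a lncRNA on the opposite strand. EGR4, the remaining family member, had 0 counts in all PBS libraries and 0 to 7 counts after SCF, and was too low to be tested.

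Per length, EGR1 carried most EGR mRNA after SCF and EGR2 most of it in sgEGR1 cells after PBS. In sgControl PBS libraries EGR1 made up 77.9%, 57.3% and 65.4% of the summed EGR1, EGR2 and EGR3 level in CPM per kb, and EGR2 the rest. In sgEGR1 PBS libraries EGR1 made up 44.4%, 22.1% and 22.5%. The level of EGR2 in CPM per kb was 1.25, 3.53 and 3.45 times that of EGR1 in the sgEGR1 PBS libraries, against 0.284, 0.746 and 0.529 times in sgControl, so the order of these genes was the opposite in every library pair. After SCF EGR1 made up 89.2% to 92.8% in sgControl and 74.6%, 72.6% and 90.4% in sgEGR1, and EGR3 stayed at or below 1.07% in every library.

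The summed EGR level, which holds EGR1, the gene the guide was aimed at, was lower with sgEGR1 after PBS. It was 4.45, 3.33 and 3.63 CPM per kb in sgControl PBS libraries and 1.47, 1.61 and 1.38 CPM per kb in sgEGR1 PBS libraries, and these did not overlap. The mean in sgEGR1 was 39.1% of that in sgControl, a log2 difference of -1.35 (exact two-sided permutation p = 0.1, n = 3 against 3, the smallest possible). After SCF the sum was 71.3, 82.8 and 61.3 CPM per kb in sgControl and 17.3, 25.2 and 71.8 CPM per kb in sgEGR1. Here the library labelled sgEGR1 SCF replicate 3 overlapped sgControl, and the log2 difference was -1.18 (exact two-sided permutation p = 0.3). Without it the difference was -1.78, where 3 against 2 libraries allow no p under 0.1.

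Set against the gap in EGR1, the differences in EGR2 and EGR3 were small. EGR1 was lower with sgEGR1 by 2.14 CPM per kb after PBS and by 33.7 CPM per kb after SCF. EGR2 was lower too, by 0.173 and 0.029 CPM per kb, and EGR3 was higher by 0.018 CPM per kb after SCF. Without the doubted library the SCF gaps were 50.1 CPM per kb lower for EGR1, 0.482 lower for EGR2 and 0.044 higher for EGR3. The upper bounds of the 95% intervals of the guide ratios would allow EGR2 a gain of 0.275 CPM per kb after PBS and of 2.04 CPM per kb after SCF, and EGR3 a gain of 0.195 CPM per kb after SCF. Without the doubted library these SCF bounds were 1.73 for EGR2 and 0.307 for EGR3.

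**Figure D2:**
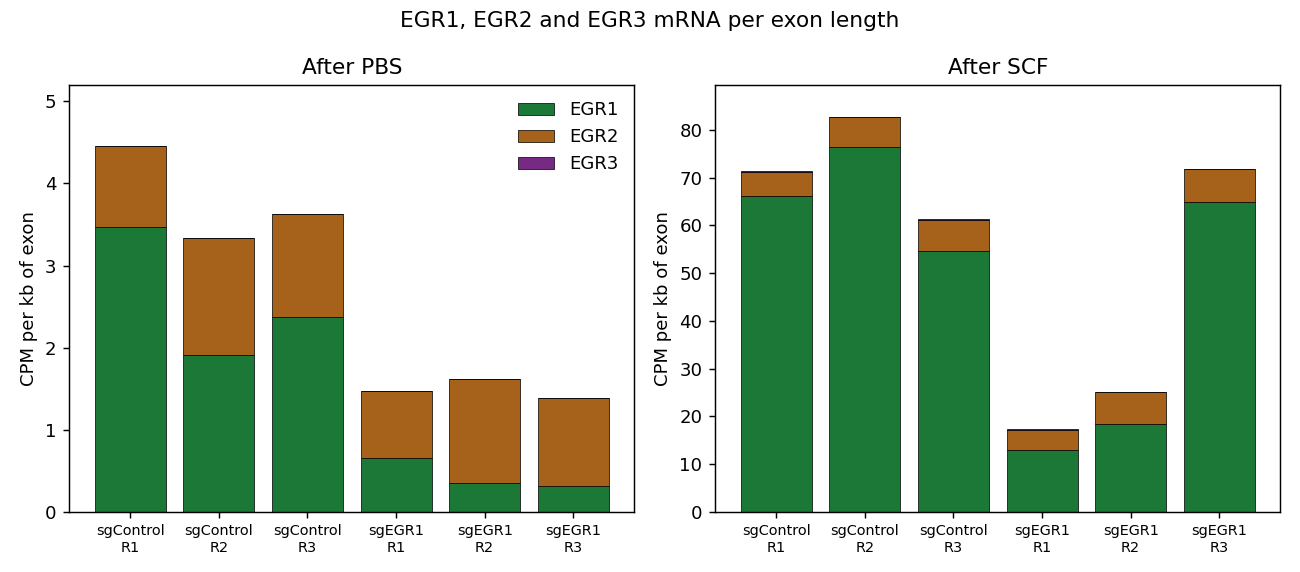
Summed level of EGR1, EGR2 and EGR3 in CPM per kb of exon (vertical axis, from 0) in each library after PBS and after SCF, with a separate scale for each treatment and a bar segment per gene. After PBS the sgEGR1 bars reach 1.38 to 1.61 and the sgControl bars 3.33 to 4.45. The mean EGR2 segment after PBS is 1.05 in sgEGR1 and 1.22 in sgControl. Within each guide after PBS, replicate 1 holds the tallest EGR1 segment and the shortest EGR2 segment.

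NAB1 (chr2:190646746-190692766, plus strand) changed little. The sgControl libraries held 14.3, 12.8 and 15.7 CPM after PBS and 19.8, 17.3 and 18.6 CPM after SCF. The sgEGR1 libraries held 14.6, 13.9 and 12.9 CPM after PBS and 18.3, 16.4 and 17.4 CPM after SCF. SCF libraries lay above PBS libraries in each guide, and the guides overlapped in each treatment. NAB1 rose 1.30-fold with SCF in sgControl (log2 0.38, SE 0.091, adjusted p 0.0464). This call was lost in each of the 12 fits that left out 1 library (adjusted p 0.0508 to 0.161), whichever library it was, while the log2 fold change stayed at 0.31 to 0.45. DESeq2, the replicate block and a term for replicate 1 kept the call (adjusted p 0.0104, 0.01 and 0.0102). In sgEGR1 the value was 1.26-fold (log2 0.33, SE 0.091, adjusted p 0.0825). The response difference between guides was -0.05 (p 0.722). Between guides the log2 fold change was -0.05 after PBS (95% interval -0.25 to 0.15) and -0.09 after SCF (-0.29 to 0.10). NAB1 shares 589 and 10 bp of exon with lncRNAs on the opposite strand.

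NAB2 (chr12:57089043-57095476, plus strand), the corepressor described as an EGR1 target, had a lower level under sgEGR1 in all PBS libraries and in 2 of 3 SCF libraries than in any sgControl library of that treatment. The sgControl libraries held 21.9, 20.1 and 19.2 CPM after PBS and 53.6, 29.7 and 33.4 CPM after SCF. The sgEGR1 libraries held 16.6, 16.3 and 17.0 CPM after PBS and 19.7, 17.4 and 35.3 CPM after SCF. The guides did not overlap after PBS, and after SCF replicate 3 of sgEGR1, the doubted library, was the one that reached the sgControl range. The SCF level over the PBS level of the same replicate number was 2.45, 1.48 and 1.74 in sgControl and 1.19, 1.07 and 2.07 in sgEGR1. The fitted SCF response of NAB2 was 0.93 on the log2 scale in sgControl (SE 0.25, p 0.00305, adjusted p 0.077) and 0.54 in sgEGR1 (SE 0.26, p 0.0572, adjusted p 0.352), neither of them called. Without the doubted library the response was 0.93 in sgControl (adjusted p 0.0228, called) and 0.16 in sgEGR1 (95% interval -0.29 to 0.61, adjusted p 0.845). The response difference between guides was -0.39 (SE 0.36, p 0.294) with all libraries. Over 19 alternative fits, those without the doubted library among them, it ran from -0.80 to -0.02. It was called in 0 of them (lowest adjusted p 0.985), so a call in sgControl alone does not establish a different response.

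Between guides the log2 fold change of NAB2 was -0.30 after PBS (95% interval -0.86 to 0.27, adjusted p 0.999) and -0.69 after SCF (-1.23 to -0.15, p 0.0169, adjusted p 1). Without the doubted library it was -1.07 after SCF (-1.52 to -0.63, p 0.000272, adjusted p 0.292), a fit in which EGR1 alone of the 5 genes was called, among 0.0126% of tested genes. Residuals of same-numbered libraries of the 2 guides were correlated, which does not establish that the libraries were paired. With the replicate number as a block and all 12 libraries, 0 of the 5 genes were called in either treatment (0.0129% of tested genes in each). With the block and without the doubted library, NAB2 was called after SCF at -1.09 (adjusted p 0.0256) together with EGR1 at -2.19 (adjusted p 0.00145), in a comparison where 0.19% of tested genes were called. The same fit called EGR1 after PBS at -2.60 (adjusted p 0.0104), with 0.265% of tested genes called, and not NAB2 at -0.29 (adjusted p 0.534). The library left out was singled out by its EGR1 level and was also highest of its group in NAB2, so these calls depend on that choice. From replicates 2 and 3 alone, which keeps the doubted library as 1 of 2, the NAB2 difference after SCF was -0.27 (adjusted p 0.943). With all libraries, exact two-sided permutation of NAB2 between guides gave p = 0.1 after PBS, the smallest possible, and p = 0.3 after SCF.

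**Figure D3:**
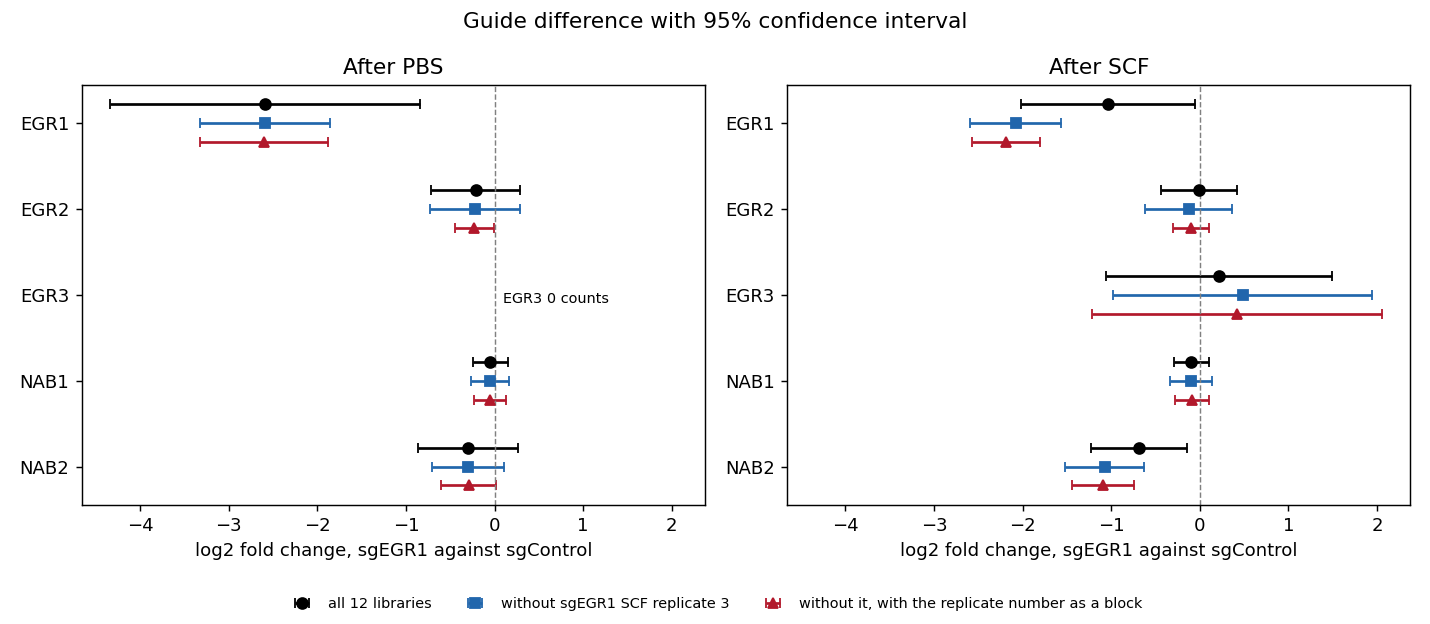
Log2 fold change of each gene, sgEGR1 against sgControl, after PBS and after SCF (horizontal axes), with 95% confidence intervals from 3 edgeR fits named in the legend. EGR3 has no value after PBS, where it had 0 counts. The intervals of EGR2 and NAB1 after SCF include 0 in all 3 fits, whereas those of NAB2 and EGR1 after SCF lie below 0 in all 3. These intervals are not adjusted for the number of genes. Neither NAB2 nor EGR1 was called in the fit with all libraries, and the other fits leave out the library singled out by its EGR1 level.

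NAB2 shares 69 bp of exon with STAT6, which lies on the opposite strand, and whether the counts used strand was not stated. STAT6 was at 92.4 to 107 CPM in the 12 libraries, with a log2 fold change between guides of 0.14 after PBS and 0.05 after SCF (adjusted p 0.999 and 1). NEMP1, the other neighbour examined, was at -0.08 and -0.02. The SCF response in sgControl was 0.02 for STAT6 and 0.04 for NEMP1, and 0 of these 2 genes were called in any comparison. Of all 15492 tested genes, 448 were called with SCF in sgControl, 402 in sgEGR1 and 0 between guides.

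Library by library, NAB2 did not track EGR1 in all groups. In sgEGR1 SCF replicates 1 and 2, EGR1 at 40.4 and 57.4 CPM was above every PBS library, and NAB2 at 19.7 and 17.4 CPM lay within the PBS range of 16.3 to 21.9 CPM. In sgEGR1 SCF replicate 3 EGR1 was at 203.6 and NAB2 at 35.3 CPM, both within the sgControl SCF range. Within sgControl SCF the order was not shared, since EGR1 was highest in replicate 2, where NAB2 was lowest, and NAB2 was highest in replicate 1. In sgEGR1 SCF replicate 3 NAB1 at 17.4 CPM lay between the other libraries of its group, and EGR2 at 25.4 CPM was next to replicate 2 at 25.2 CPM. EGR1 levels formed separate clusters by treatment, and after PBS by guide. After the group means were taken off, the correlation of EGR1 with NAB2 over 12 libraries was 0.624 (Pearson's r) and 0.573 (Spearman's rho) (exact permutation within groups, p = 0.198 and p = 0.138). Of 11 relations tested, none passed adjustment, and the adjusted p for this r was 0.489. Without the 2 libraries farthest in EGR1, which were sgEGR1 SCF replicates 1 and 3, r was 0.0422, so the relation rests on those libraries. Within the 6 PBS libraries r of EGR1 with NAB2 was 0.928 and rho 0.771 (exact permutation p = 0.0278 and p = 0.103, adjusted p for r 0.26), and r was 0.943 without the 2 farthest, but the guides form separate clusters there, so the relation cannot be told apart from the guide. Within the 6 SCF libraries r was 0.831 and rho 0.6 (exact permutation p = 0.0472 and p = 0.242, adjusted p for r 0.26), and r was -0.106 without the 2 farthest, sgEGR1 SCF replicates 1 and 2, on which the relation rests. Over deviations, EGR1 and NAB1 had r = 0.142 and rho = 0.294 (exact permutation p = 0.665 and p = 0.317, adjusted p for r 0.813), and r = 0.402 without the 2 libraries. For EGR2 r was 0.0786 (exact permutation p = 0.914) and for EGR3 -0.557 (exact permutation p = 0.167). Without the same 2 libraries r was -0.788 for EGR2 and -0.0356 for EGR3, so these values depend on those libraries.

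**Figure D4:**
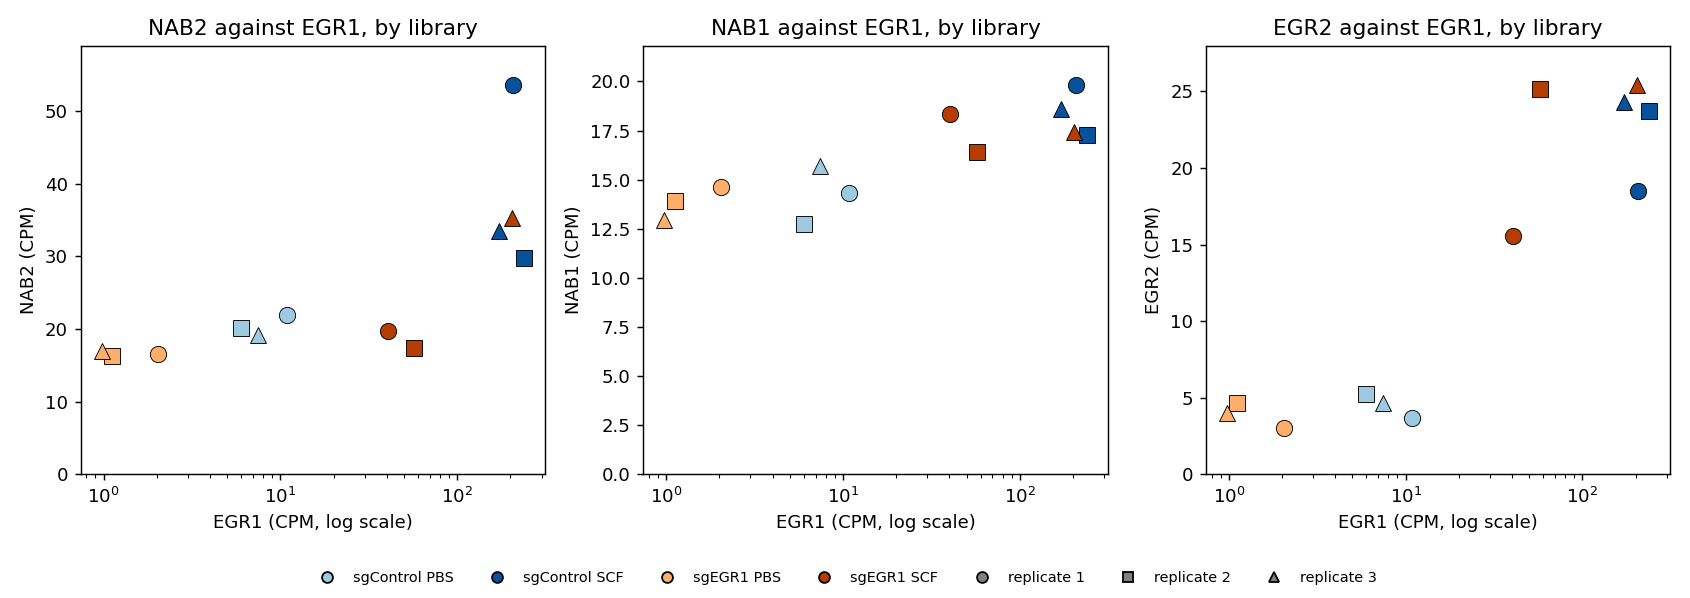
CPM of NAB2, NAB1 and EGR2 (vertical axes, from 0) against CPM of EGR1 (horizontal log axes), 1 point per library, coloured by group with the replicate as the symbol. NAB2 in sgEGR1 SCF replicates 1 and 2 (19.7 and 17.4 CPM) sits beside the PBS libraries and in replicate 3 (35.3 CPM) beside sgControl SCF, whereas EGR2 is higher in every SCF library than in any PBS library.

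The ratio of corepressor to EGR mRNA was lower in every SCF library than in any PBS library. Its denominator holds EGR1, the gene the guide was aimed at. The summed NAB1 and NAB2 level in CPM per kb was 2.38, 2.89 and 2.74 times the summed EGR level in sgControl PBS libraries and 5.98, 5.29 and 6.21 times in sgEGR1 PBS libraries. After SCF this ratio was 0.319, 0.168 and 0.253 in sgControl and 0.615, 0.374 and 0.221 in sgEGR1. The guides did not overlap after PBS (log2 difference 1.13, exact two-sided permutation p = 0.1, the smallest possible for 3 against 3), and they overlapped after SCF (0.64, exact permutation p = 0.3), through replicate 3 of sgEGR1. Without that library the difference after SCF was 1.01 (exact permutation p = 0.2). In order of level in sgControl PBS cells, NAB2 stood at 7.13 ± 0.474 CPM per kb (SD, n = 3), NAB1 at 2.92 ± 0.302, EGR1 at 2.58 ± 0.800 and EGR2 at 1.22 ± 0.222, with NAB1 and EGR1 overlapping. After SCF the order in sgControl was EGR1 at 65.7 ± 10.9 CPM per kb, NAB2 at 13.6 ± 4.49, EGR2 at 5.98 ± 0.863, NAB1 at 3.80 ± 0.262 and EGR3 at 0.107 ± 0.058, with no overlap of neighbours.

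The route from Kit to EGR1 was itself nearly flat in mRNA. Of its 10 tested genes, 1 was called higher with SCF in each guide and 0 were called lower. Over all tested genes 2.12% were called higher in sgControl and 1.81% in sgEGR1. Medians of the 10 genes were 0.05 and 0.03 on the log2 scale. The gene that rose was SRF, which binds CArG boxes, at a log2 fold change of 1.04 in sgControl (adjusted p 9.66e-05) and 1.13 in sgEGR1 (adjusted p 5.49e-05). The next highest was MAP2K1, the kinase above ERK, at 0.14 and 0.13 (adjusted p 0.286 and 0.32). MAPK3, which encodes ERK1, was lowest in both guides at -0.09 and -0.07, next to MAP2K2 at -0.04 in sgControl and KIT at -0.07 in sgEGR1. Between guides 0 of the 10 genes and 0% of all tested genes were called in either treatment, and KIT, the receptor, was at 0.13 after PBS and 0.07 after SCF.

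Other early genes of the ERK pathway served as comparators for the guide difference. Of 13 tested, 10 were called higher with SCF in sgControl and 9 in sgEGR1, against 2.12% and 1.81% of all tested genes. In each guide 0 were called lower, though ATF3 was at -0.23 and -0.14. Medians were 1.30 and 1.45 on the log2 scale. The AP-1 genes FOSL1 and FOSB led in both guides, FOSL1 at 2.80 and 3.09 and FOSB at 2.77 and 3.30. Lowest among those called were JUNB at 0.65 and KLF10 at 0.74 in sgControl, and JUNB at 0.72 and MYC at 0.94 in sgEGR1. Between guides 0 of the 13 and 0% of all tested genes were called, so this count does not set the comparators apart. Their medians were -0.06 after PBS and 0.08 after SCF. After SCF the range ran from SPRY2, an ERK feedback inhibitor, at -0.07 and MYC at -0.04 to FOSL1 at 0.39 and SPRY4 at 0.78. After PBS it ran from DUSP5 at -0.79 and FOS at -0.53 to SPRY2 at 0.12 and KLF10 at 0.20. In sgEGR1 SCF replicate 3, 4 of the 13 (DUSP5, DUSP6, KLF10 and MYC) were above both other libraries of their group.

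Partners and relatives of these factors were not called. Of the 15492 tested genes, edgeR called 448 with SCF in sgControl, 402 in sgEGR1 and 0 between guides. A count of 0 between guides therefore says nothing particular about these genes. At an unadjusted p under 0.05 with SCF there were 3 of 13 NuRD genes in sgControl and 2 in sgEGR1, and likewise 3 and 2 of 13 described EGR1 targets. Over all tested genes these numbers were 2222 and 2328. Among 13 genes of the NuRD complex 0 were called in any comparison. Their log2 fold changes with SCF in sgControl ran from -0.12 for MTA3 and MTA1 to 0.05 for GATAD2A and 0.11 for MTA2, and in sgEGR1 from -0.17 for MTA1 and -0.04 for GATAD2B to 0.09 for MBD3 and 0.10 for MBD2. The coactivators EP300 and CREBBP were not called, at -0.03 and -0.05 with SCF in sgControl and at 0.0030 and -0.0030 between guides after SCF. Of the genes that bind sites related to the EGR site, SP1, SP3 and WT1 were tested and 0 were called. WT1, a zinc-finger factor with an overlapping site, was at 0.07 with SCF in sgControl, 0.38 in sgEGR1 (adjusted p 0.208) and 0.16 between guides after SCF. Among 13 tested of 18 genes described elsewhere as EGR1 targets, 0 were called in any comparison, with a median SCF response of 0.13 in sgControl and 0.16 in sgEGR1. Highest with SCF in sgControl were FN1 at 1.71 (SE 1.43), at under 1 CPM, and SPRED1, an ERK pathway inhibitor, at 0.95 (SE 0.23, adjusted p 0.0517), and lowest was CDKN1A at -0.20. Between guides after SCF the lowest were MMP14 at -1.004 (SE 0.66), at under 1 CPM, and PTGES at -0.22 and the highest ICAM1 at 0.10 and PDGFA at 0.11.

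The genes most like each member over the 12 libraries were taken by Pearson's r of log2 CPM among 11175 candidate genes with a mean of at least 2 CPM. The points share treatment, guide and library, so these r are given as a description. For EGR1 they were NRROS (r = 0.974), HPDL and ABT1. For EGR2 they were MYADM (r = 0.993), MYC and CCNJ, and for EGR3 CHAC1 (r = 0.992), PPP1R15B and CDC6. For NAB1 they were GOSR1 (r = 0.969), YTHDF3 and G3BP1. For NAB2 they were SNAPC2 (r = 0.951), RGS14 and CAVIN1.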

How the data were processed

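RNA-seq was carried out on 12 HUDEP-2 libraries. The authors aligned reads to hg38 with HISAT2 and deposited estimated counts per gene from StringTie, unscaled for depth or length, with one column per library. All deposited values were whole, so rounding changed 0 of them. The annotation release and the use of strand in counting are not given in the sources used here. The guide code in the column names was read as sgEGR1, the single targeting guide in the labels, and 0 columns were left unmapped.

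Counts were filtered with filterByExpr, which left 15492 genes, scaled by TMM and fitted in edgeR 4.0.16 (R 4.3.3) by quasi-likelihood over the 4 groups, all 12 libraries sharing one spread. DESeq2 1.42.0, RLE factors, no filter, a replicate block, a term for replicate 1, replicates 2 and 3 only and leaving out each library were alternatives. The code was tested on simulated counts. Exact permutation tests were used for single values. Log2 CPM used a prior count of 2. The floor was 3 counts. It covers counting error alone, because reads for which no molecular identifiers are stated need not be independent molecules. Chi-square per degree of freedom between replicates was 4.4 or more, above sampling noise.

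Whether replicate numbers pair libraries was checked from the correlation of residuals of same-numbered libraries. Between guides, PBS libraries gave 0.232, 0.103 and 0.119, and SCF libraries 0.269, 0.102 and 0.126, each over 0.1. Libraries of different numbers were not compared, and a shift in replicate 1 alone would also make these values positive. The labels give only numbers, so pairing was not established.

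The 5 genes and the lists (EGR site relatives, NuRD, coactivators, Kit route, described targets, ERK comparators, NAB2 neighbours and lineage markers) were chosen with earlier results of these data known. Named genes were the members, the 3 most alike genes of each, the 2 highest and 2 lowest log2 fold changes of a list among those called, or among those tested where fewer were called, and genes overlapping exons of a member. FOS in the account of the libraries, the genes of the comparator list above both other libraries of their group and list members with their roles given beside them were named after their values were seen. Some items that this rule would name are not reported here. The ratio of NAB to EGR mRNA and the gaps per kb without sgEGR1 SCF replicate 3 were also added after the values were seen, and HBG1, HBG2 and KIT were named among the markers in the same way. HBG1, KIT and FOSL1 were likewise set beside the label of sgEGR1 SCF replicate 3 after their values were seen.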

Additional observations from a re-analysis of the deposited data

How the results depend on the processing

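Of 23 fitted log2 fold changes of members, 435 values under alternatives kept direction and side of the threshold in 389 cases, lost a call in 23, gained one in 13 and turned in sign in 10. This tally holds the SCF values of EGR3, whose direction the filter fixed. EGR1 and EGR2 were called for SCF in every alternative run. NAB2 with SCF in sgControl was called with DESeq2 (adjusted p 0.00438), with the replicate block (0.0263) and with a term for replicate 1 (0.0296), and NAB1 in sgEGR1 with the same 3 (0.039, 0.0212 and 0.0215). DESeq2 gave no adjusted p for EGR3, called EGR1 after PBS (0.0381), 1 of 5 members there, and called no member of the guide comparison after SCF. Within a guide the residual correlations of same-numbered libraries were 0.272, 0.00766 and 0.108 in sgControl and 0.23, 0.0749 and 0.062 in sgEGR1, not all over 0.1. The replicate block called no further member between guides.

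Without 1 library, the guide difference of EGR2 after SCF ran from -0.13 to 0.19 (0.069 from replicates 2 and 3), that of EGR3 after SCF from -0.17 to 0.75, that of NAB1 after PBS from -0.12 to 0.027 and the NAB1 response difference from -0.12 to 0.029 (0.00020 from replicates 2 and 3). The correlation of deviations of EGR1 and NAB1 was -0.000399 with the block and -0.00695 to 0.412 without 1 library. That of EGR1 and NAB2 was -0.0228 to 0.784, and -0.0228 without sgEGR1 SCF replicate 3. For EGR2 it was 0 as Spearman's rho, -0.788 without the 2 farthest libraries and -0.482 to 0.31 without 1. Within PBS libraries that of EGR2 was -0.0857 as rho and -0.024 to 0.434 without 1 library, and within SCF libraries -0.358 to 0.785 without 1 and -0.148 without the farthest 2. Within SCF libraries NAB1 was at -0.396 and NAB2 at -0.106 without the farthest 2, and NAB1 at -0.0996 to 0.574 without 1. The cause was not tested.

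Genes called for SCF in sgControl, SCF in sgEGR1, the guides after PBS, the guides after SCF and the response difference were 448, 402, 0, 0 and 0. DESeq2 called 759, 770, 20, 5 and 4, the replicate block 1184, 1235, 2, 2 and 0, and a term for replicate 1 called 1289, 1326, 4, 2 and 0. The block without sgEGR1 SCF replicate 3 called 1143, 643, 42, 30 and 2. Replicates 2 and 3 alone called 690 in sgEGR1, then 3, 2 and 2. A minimum of 1.5-fold left 115 and 118, and no filter gave 1 after PBS. Without 1 library the counts were 194 to 448, 176 to 428, 0 to 1, 0 to 2 and 0 to 2. Members called, EGR3 left out, were 3, 2, 0, 0 and 0. The alternatives counted EGR3 too, with which the SCF counts were 4 and 3. Its SCF direction was fixed by the filter, so its calls are no support for a response. So counted, members called were 2 from replicates 2 and 3 in sgControl. Without 1 library they were 2 to 4 there, 2 to 3 in sgEGR1 and 0 to 1 between guides after SCF. With the block and without sgEGR1 SCF replicate 3 they were 1 after PBS and 2 after SCF. The summed EGR difference was -1.44 to -1.23 after PBS and -1.78 to -0.74 after SCF without 1 library.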
